A study of Mus musculus with 54 samples.

Results

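Semaglutide was compared with vehicle in early proximal tubules of diabetic Akita mice with intact Sglt1, using the 5 semaglutide and the 6 vehicle samples that have a column in the deposited table of 48 samples. The members were chosen by their group label alone, and the comparison covers the 12742 genes with a TPM of 1 or more in at least 5 of the 48 columns. TPM is a measure of transcript abundance per length that scales each library to the same total. Both groups were male DBA mice of 14 weeks, heterozygous for the Akita mutation of the insulin gene Ins2 (Ins2 Akita/+) and wild type for Sglt1 (Sglt1+/+). For 2 weeks semaglutide was injected under the skin at 3 nmol/kg daily, and the labels do not say whether vehicle mice were injected. Beside them stand 5 samples of Akita Sglt1+/+ males given dapagliflozin in the food (10 mg/kg diet) and 5 samples of non-diabetic Ins2+/+ Sglt1+/+ males on vehicle, of the same strain, age and duration. Each sample pooled 70 to 80 laser-captured tubules that were positive for SGLT2, so the sorting gene Slc5a2 is no independent check of the segment. Nothing in the labels says which samples came from separate animals, so each p-value measures the spread between samples alone, which may be technical. Semaglutide sample 1 was labelled and was not analysed here, so its samples are numbered 2 to 6.

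Akita mice make a misfolding proinsulin that damages beta cells, which leaves them short of insulin and with high blood glucose. Semaglutide is a long-acting analogue of the gut hormone GLP-1. Its receptor, encoded by Glp1r, is a Gs-coupled receptor that raises cAMP, and in the kidney it is known mainly from smooth muscle of preglomerular vessels. The early proximal tubule reabsorbs most of the filtered glucose through SGLT2, takes up sodium and bicarbonate through the exchanger NHE3 and the cotransporter NBCe1, and makes glucose from lactate and amino acids. Incretin drugs are known to raise urinary sodium acutely, an action ascribed to lower NHE3 activity.

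The captured tissue carried the labelled segment's markers in both groups. The summed level of 8 early proximal tubule markers was 1253 ± 212 TPM with vehicle (SD, n = 6) and 1359 ± 289 TPM with semaglutide (n = 5), with an exact two-sided permutation p of 0.541. These 8 include the sorting gene Slc5a2 (means of 193 and 177 TPM) and Slc34a1, the largest member (632 and 625 TPM). The sum of 6 late proximal tubule markers was 35.6 ± 16.1 TPM with vehicle and 65.2 ± 31.7 TPM with semaglutide (exact permutation p = 0.0952, adjusted p = 0.679 over 19 library measures). Semaglutide samples 3, 5 and 6 lay at 92.9, 95.6 and 73.7 TPM on that sum, above the vehicle range of 20.8 to 64.1, and samples 2 and 4 lay inside it. Markers of other cell types were present too, with mean sums for vehicle and semaglutide given in that order. They were 72.6 and 65.9 TPM for distal tubule, 60.7 and 53.1 TPM for endothelium and 50.9 and 65.8 TPM for thick ascending limb. Vehicle sample 1 reached 173, 102 and 124 TPM on these sums. All 8 lymphocyte and 5 neutrophil markers stayed under 1 TPM in the 11 libraries, with S100a8, Ly6g and Elane at 0. Vehicle samples 2 and 5 had 8869 and 8624 genes at 1 TPM or more, against 9329 to 10864 in the other 9 libraries. The most abundant ribosomal RNA took 52.0 ± 4.45% of TPM with vehicle and 45.6 ± 6.54% with semaglutide (exact permutation p = 0.0866, adjusted p = 0.679). The capture numbers in the sample titles ran from 1 to 82 for vehicle and from 88 to 99 for semaglutide, so order of capture and treatment cannot be told apart.

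**Figure D1:**
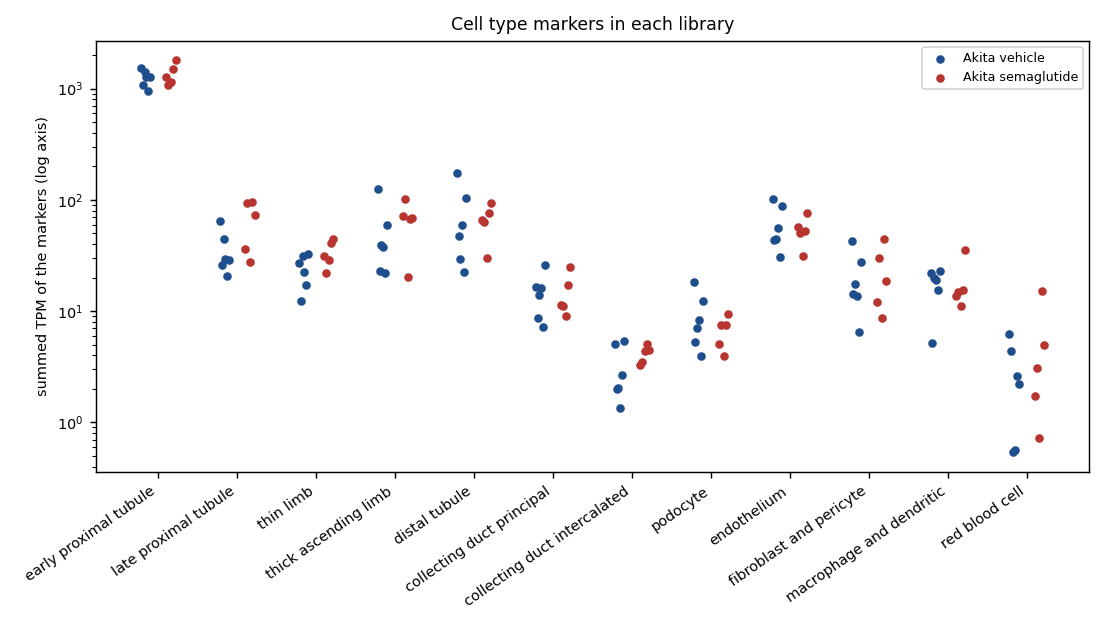
Summed TPM of each cell type marker list (horizontal axis) on a log axis, with 1 point per library for Akita vehicle (blue, 6) and Akita semaglutide (red, 5). Early proximal tubule markers sum to 954 TPM or more in both groups, and the late proximal tubule sum reaches 95.6 TPM with semaglutide and 64.1 TPM with vehicle.

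No gene passed the test between semaglutide and vehicle. limma called 0 of 12742 genes at an adjusted p under 0.05 (0%), the smallest adjusted p was 0.539, and 742 genes (5.82%) had an unadjusted p under 0.05. Of these, 663 (5.20%) were higher and 79 (0.620%) lower with semaglutide. The balance followed the scale, since the median of all genes lay 0.13 above 0 (log2) and 70.7% of genes had a value above 0. Median-of-ratios scaling moved that median to 0.00, with 50.3% of genes above 0, and split the same threshold into 477 higher (3.74%) and 452 lower (3.55%), still with 0 called. Changes below are log2 differences of TPM + 1 as deposited, and are to be read against 0.13. Without vehicle samples 2 and 5 the median of all genes was 0.00 and 411 genes had an unadjusted p under 0.05, 169 higher and 242 lower. List counts given below without those samples are to be read against these. The precision was moderate, with a median 95% interval of ±0.51 around a gene's change. For 10720 genes (84.1%) the whole interval lay within 1 log2 unit of 0, and for the 126 genes above 100 TPM this held for 87 (69%). These units are of TPM + 1, and the added 1 shrinks the changes of genes at low TPM. The interval therefore bounds no fold change for the 2591 genes under 1 TPM on average, or the 7807 at 1 to 10 TPM.

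**Figure D2:**
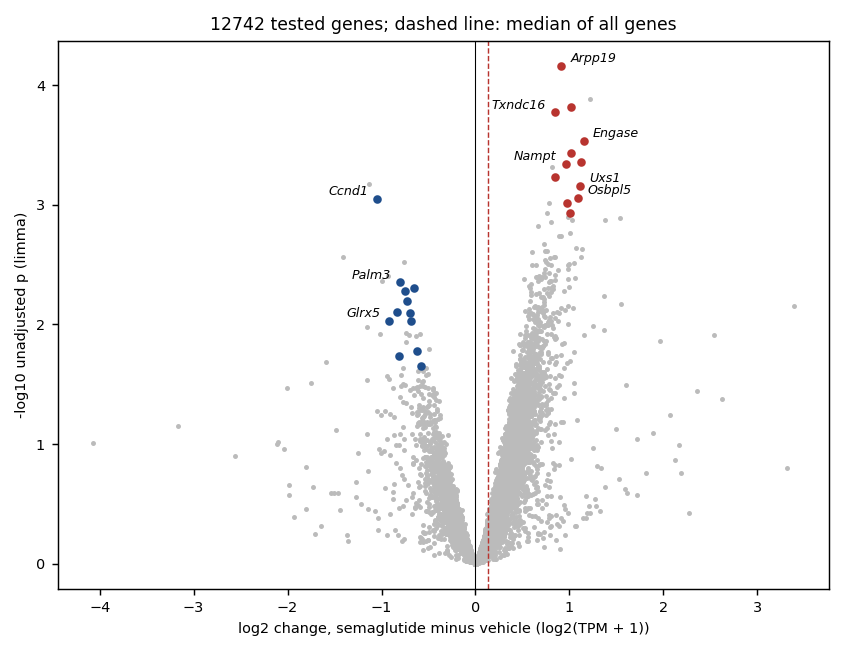
Log2 change with semaglutide against vehicle (horizontal axis) and −log10 of the unadjusted limma p (vertical axis) for 12742 genes, with 1 grey point per gene. Red and blue points are the 12 higher and 12 lower named genes with the smallest p, and the dashed line at 0.13 marks the median of all genes, to the right of 0.

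The receptor of the drug was at the floor of the assay in the tubule. Glp1r lay between 0 and 0.168 TPM in the vehicle samples and between 0 and 0.0922 TPM in the semaglutide samples, and it reached at most 0.277 TPM in any of the 48 columns, too low to test. Gipr, the receptor of the sister incretin GIP, was listed at 0 in every column. Gcgr, the glucagon receptor, ranged from 0.0949 to 0.814 TPM with vehicle and from 0.279 to 0.872 TPM with semaglutide, a difference of 0.14 ± 0.24 (SE, limma adjusted p = 0.952).

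Dpp4, the brush border peptidase that cleaves native GLP-1, was the incretin gene with the smallest p. Vehicle samples 1 to 6 read 5.55, 2.87, 3.81, 5.67, 4.93 and 4.18 TPM, and semaglutide samples 2 to 6 read 4.55, 7.72, 5.42, 7.31 and 6.73 TPM. Semaglutide samples 3, 5 and 6 lay above every vehicle sample, and samples 2 and 4 within the vehicle range. The difference was 0.42 ± 0.23 (95% interval −0.05 to 0.89, limma adjusted p = 0.861), and 0.26 with median-of-ratios scaling. Downstream of a Gs-coupled receptor, 22 tested genes of incretin and cAMP signalling, which include adenylyl cyclases, protein kinase A subunits, phosphodiesterases and CREB factors, had a median of 0.17. Of these, 21 were above 0 (13 with median-of-ratios scaling), against 70.7% of all genes (50.3% with that scaling). None of the 22 had an unadjusted p under 0.05, against 5.82% of all genes. Pth1r, the parathyroid hormone receptor and the most abundant member, differed by 0.18 ± 0.21, from 64.2 ± 17.01 TPM with vehicle to 71.1 ± 10.6 TPM with semaglutide. Pde4b, a cAMP phosphodiesterase, differed by 0.31.

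Glucose transporters showed the lowest list median among the transport lists. Slc5a2, which encodes SGLT2, read 226, 173, 182, 213, 146 and 215 TPM in the vehicle samples and 175, 136, 148, 176 and 249 TPM in the semaglutide samples. Semaglutide sample 6 was the highest of the 11 and sample 3 the lowest, so the groups overlapped throughout. The difference was −0.14 ± 0.26 (95% interval −0.67 to 0.39, limma adjusted p = 0.953) on the deposited scale and −0.34 with median-of-ratios scaling. Slc5a1, which encodes SGLT1 and takes up glucose further along the tubule, differed by 0.18 ± 0.21, with vehicle samples from 0.814 to 3.55 TPM and semaglutide samples from 0.989 to 3.47 TPM. Slc2a2, which encodes the basolateral transporter GLUT2, differed by −0.09 ± 0.25. Across 12 glucose transporter genes the median was −0.05, and 5 were above 0, against 70.7% of all genes. None of the 12 had an unadjusted p under 0.05. Slc2a1 (GLUT1) was 0.33 higher and the monocarboxylate carrier gene Slc5a8 0.43 higher.

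Sodium and bicarbonate transport genes lay close to the median of all genes. Slc9a3, which encodes NHE3, read 21.3, 14.2, 19.3, 14.2, 13.7 and 15.7 TPM with vehicle and 15.3, 20.2, 18.5, 21.5 and 24.1 TPM with semaglutide. The ranges overlapped, with semaglutide samples 5 and 6 above every vehicle sample. The difference was 0.27 ± 0.23 (95% interval −0.20 to 0.74, limma adjusted p = 0.894), and 0.08 with median-of-ratios scaling. Slc4a4, which encodes NBCe1, differed by 0.20 ± 0.26, a value of 0.00 with median-of-ratios scaling. The carbonic anhydrase gene Car14 was 0.39 higher and the sodium pump regulator gene Fxyd2 0.11 higher. Over 15 genes the median was 0.19, with 12 above 0, against 70.7% of all genes. None had an unadjusted p under 0.05, against 5.82% of all genes. With median-of-ratios scaling 1 was lower at that threshold, against 3.55% of all genes. Slc34a1, the main phosphate cotransporter of the segment, differed by −0.01 ± 0.23 (95% interval −0.48 to 0.45), from 632 ± 120.0 TPM to 625 ± 117 TPM, and the 10 phosphate genes had a median of 0.03.

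**Figure D3:**
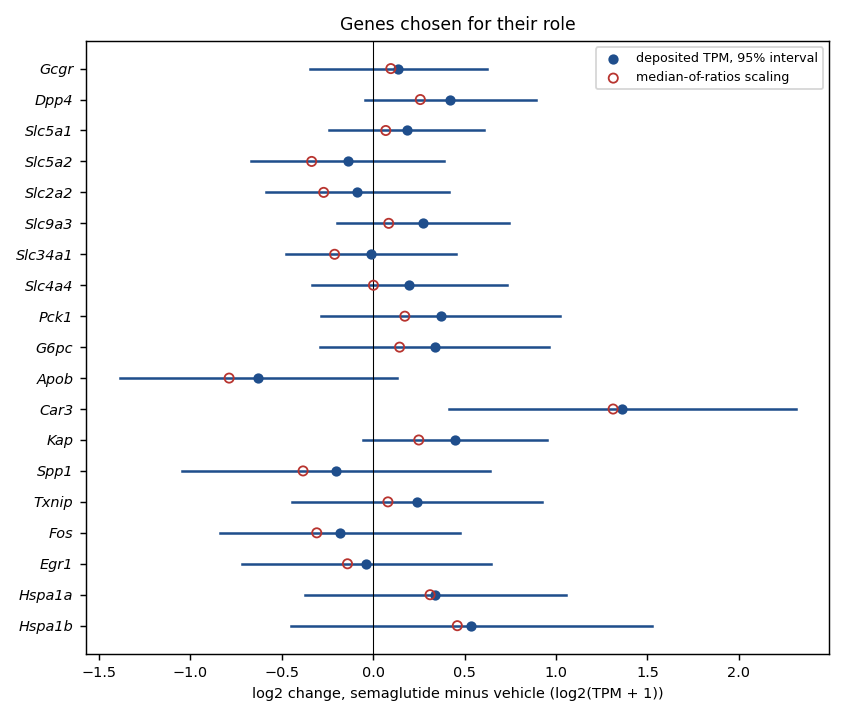
Log2 change with semaglutide against vehicle for genes chosen for their role, with filled points and 95% limma intervals on the deposited scale and open circles for median-of-ratios scaling. The interval includes 0 for every gene shown except Car3, whose interval runs from 0.42 to 2.31 without adjustment for the number of genes.

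Among the genes named for their role, Car3 had the largest difference. Car3 encodes a cytosolic carbonic anhydrase that is sensitive to oxidative stress. Vehicle samples read 0.444, 0, 0.186, 0.858, 0.134 and 0.607 TPM, and semaglutide samples read 1.52, 3.15, 0.555, 9.29 and 1.91 TPM. Semaglutide sample 4 lay inside the vehicle range and the other 4 lay above it. The difference was 1.36 ± 0.47 (limma adjusted p = 0.809). Means in the other groups were 4.53 ± 3.70 TPM with dapagliflozin and 7.08 ± 4.44 TPM in non-diabetic vehicle tubules (SD, n = 5 each). Apob, the apolipoprotein of lipoprotein particles, read 13.4, 4.21, 11.3, 9.15, 6.46 and 13.4 TPM with vehicle and 14.3, 2.39, 9.07, 2.46 and 5.30 TPM with semaglutide. Semaglutide samples 3 and 5 lay below every vehicle sample and sample 2 above every one, which gave −0.63 ± 0.38 (95% interval −1.39 to 0.13, limma adjusted p = 0.878). All 5 semaglutide samples stayed above the non-diabetic range of Apob, 0.944 to 2.17 TPM, with a difference from that group of 1.34 ± 0.39 (limma adjusted p = 1.00).

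Genes of glucose production had small positive values. Pck1, the enzyme that commits carbon to glucose, differed by 0.37 ± 0.33, from 274 ± 94.1 TPM to 380.0 ± 190.2 TPM, with semaglutide samples from 124 to 630 TPM. The Pck1 difference was 0.73 without semaglutide sample 2, 0.23 without semaglutide sample 4, 0.14 without semaglutide sample 5 and 0.15 without vehicle sample 5. G6pc, which releases free glucose, differed by 0.34 ± 0.31, and by 0.20 without vehicle sample 2 and 0.18 without semaglutide sample 6. All 12 gluconeogenesis genes were above 0, against 70.7% of all genes, with a median of 0.20 on the deposited scale. With median-of-ratios scaling 7 of 12 were above 0 (median 0.04), against 50.3% of all genes. Insr, the insulin receptor, was the member with an unadjusted p under 0.05. It averaged 10.6 ± 1.49 TPM with vehicle and 16.99 ± 4.48 TPM with semaglutide, a difference of 0.60 ± 0.24 (limma adjusted p = 0.836).

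The genes with the smallest p were chosen for their difference, so their values describe these samples and support nothing further. Arpp19 (chromosome 9, 75037614 to 75060313, GRCm38), a protein-coding gene, had the smallest p of the named genes. It encodes a phosphoprotein regulated by cAMP-dependent kinase that restrains protein phosphatase PP2A in mitosis. Vehicle samples 1 to 6 read 13.2, 5.17, 7.66, 13.8, 8.73 and 12.1 TPM, and semaglutide samples 2 to 6 read 13.9, 16.3, 22.3, 24.0 and 20.2 TPM. The groups did not overlap, although the lowest semaglutide sample and the highest vehicle sample were nearly equal. The difference was 0.91 ± 0.21 (95% interval 0.49 to 1.33, limma adjusted p = 0.539), and 0.73 with median-of-ratios scaling. Dapagliflozin samples averaged 20.8 ± 2.47 TPM and non-diabetic vehicle samples 17.5 ± 4.19 TPM, both near the semaglutide mean of 19.3 ± 4.21 TPM. The direct difference of Arpp19 from dapagliflozin was −0.12 ± 0.22 and from the non-diabetic group 0.14 ± 0.22.

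Txndc16 (chromosome 14, 45133465 to 45220328), which encodes a thioredoxin-domain protein of the secretory pathway, had its highest mean among the 4 wild-type groups with semaglutide. Vehicle samples read 1.31, 0.567, 1.34, 0.894, 0.942 and 1.26 TPM, and semaglutide samples read 2.26, 2.27, 1.39, 3.14 and 5.14 TPM. The semaglutide and vehicle samples did not overlap, and semaglutide sample 6 was the highest of the 48 columns. The difference from vehicle was 0.85 ± 0.21 (95% interval 0.43 to 1.26, limma adjusted p = 0.539). Dapagliflozin samples lay between 0.901 and 1.61 TPM, a range that holds semaglutide sample 4, and non-diabetic vehicle samples between 0.513 and 1.22 TPM. Over the 43 columns outside the semaglutide group, Txndc16 ranged from 0.361 to 2.00 TPM with a median of 0.998, and the semaglutide median was 2.27. It was 0.76 ± 0.22 higher than with dapagliflozin (limma adjusted p = 1.00) and 1.02 ± 0.22 higher than in non-diabetic vehicle tubules (limma adjusted p = 0.278).

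**Figure D4:**
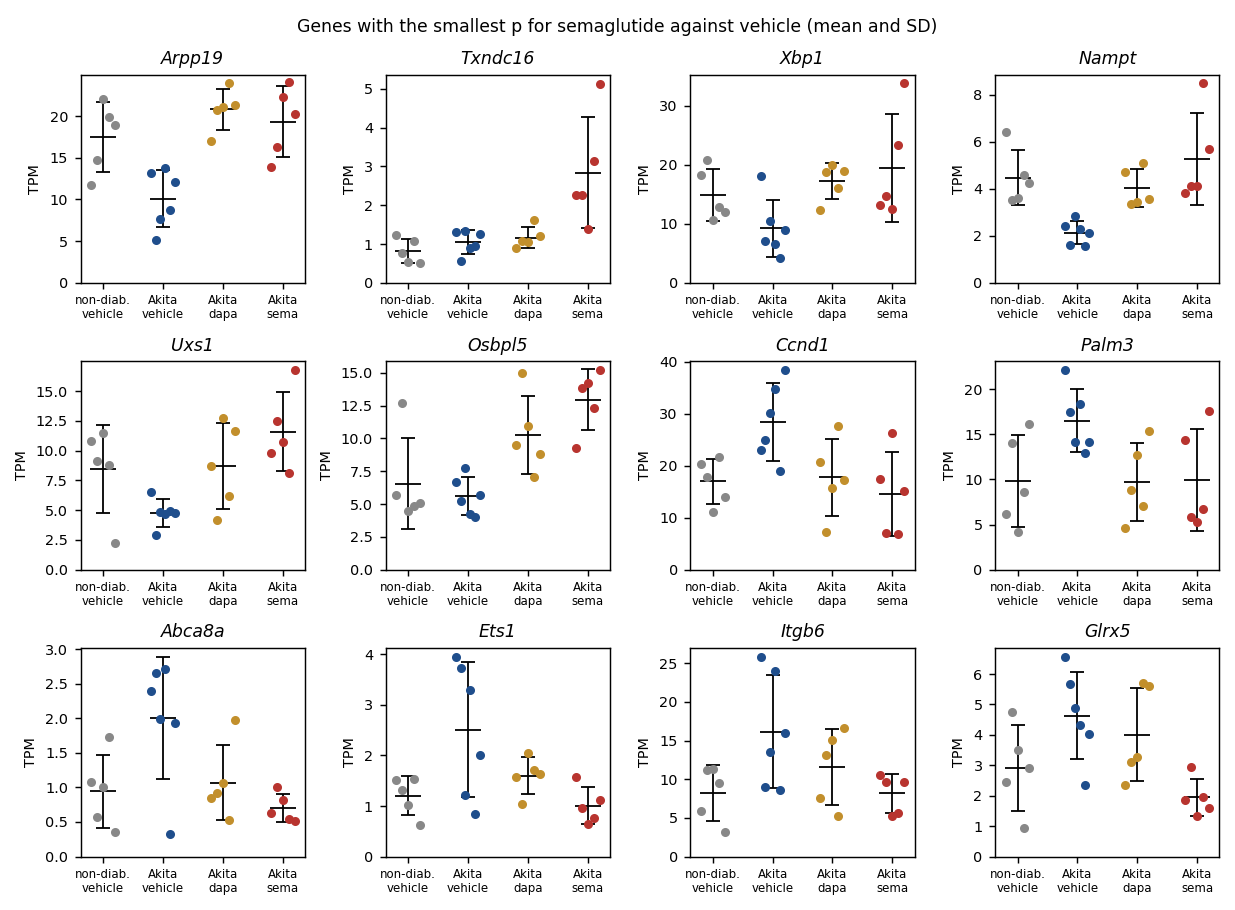
TPM of 12 genes with small p (6 higher, 6 lower with semaglutide) in 4 groups of wild-type Sglt1, with 1 point per sample and bars for the mean and SD. For Arpp19, Xbp1 and Nampt the Akita vehicle group has the lowest mean of the 4, with overlapping samples for Arpp19 and Xbp1. For Txndc16 the semaglutide group has the highest mean, with samples from 1.39 to 5.14 TPM.

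Nampt, Uxs1, Osbpl5, Abca1 and Engase, also among the 12 higher genes of smallest p, did not overlap between the groups either. Nampt (chromosome 12, 32819545 to 32853349), the rate-limiting enzyme of NAD salvage, read 2.40, 1.61, 2.84, 2.27, 1.58 and 2.14 TPM with vehicle and 3.83, 4.13, 4.12, 8.52 and 5.70 TPM with semaglutide. Every semaglutide sample exceeded every vehicle sample, by 0.96 ± 0.26 on average (limma adjusted p = 0.679). The means of Nampt were 4.04 TPM with dapagliflozin and 4.47 TPM in non-diabetic vehicle tubules. Uxs1, which makes UDP-xylose for proteoglycans, lay between 2.90 and 6.502 TPM with vehicle and between 8.08 and 16.8 TPM with semaglutide (1.11 ± 0.31). Osbpl5, a lipid transfer protein of membrane contact sites, lay between 4.003 and 7.73 TPM with vehicle and between 9.28 and 15.2 TPM with semaglutide (1.09 ± 0.31). Abca1, the cholesterol efflux pump, lay between 0.722 and 2.73 TPM with vehicle and between 2.89 and 4.804 TPM with semaglutide (1.01 ± 0.29). Engase, which trims glycans from misfolded glycoproteins, lay between 0.337 and 1.33 TPM with vehicle and between 1.82 and 4.37 TPM with semaglutide (1.15 ± 0.30). These 4 genes had limma adjusted p between 0.679 and 0.777. In all, 47 genes (0.369%) were higher and 4 genes (0.0314%) lower in every semaglutide sample than in every vehicle sample. With median-of-ratios scaling the same count gave 50 higher (0.392%) and 39 lower (0.306%).

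Among the 12 higher genes of smallest p, Rsl24d1, Dzip1, Sugct, G0s2 and Xbp1 overlapped between the groups. Rsl24d1, an assembly factor of the large ribosomal subunit, differed by 1.02 ± 0.25, with semaglutide sample 6 at 1.92 TPM inside the vehicle range of 0.668 to 2.63 TPM. Dzip1, a cilium assembly protein, differed by 1.12 ± 0.30, and Sugct, a mitochondrial glutarate transferase, by 0.85 ± 0.23. G0s2, an inhibitor of the lipase that opens triglyceride stores, differed by 0.98 ± 0.28 and averaged 6.06 ± 2.19 TPM with vehicle and 12.9 ± 4.54 TPM with semaglutide.

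Lower values were led by Ccnd1 (chromosome 7, 144929931 to 144939925), which encodes cyclin D1, a driver of entry into the cell cycle. Vehicle samples read 23.0, 25.0, 30.2, 34.8, 18.9 and 38.5 TPM, and semaglutide samples read 17.5, 7.06, 26.4, 6.81 and 15.2 TPM. Semaglutide samples 2, 3, 5 and 6 lay below every vehicle sample, and sample 4 lay inside the vehicle range. The difference was −1.04 ± 0.30 (95% interval −1.64 to −0.45, limma adjusted p = 0.775), and −1.23 with median-of-ratios scaling. The group means of Ccnd1 were 28.4 ± 7.43 TPM with vehicle, 14.6 ± 8.13 TPM with semaglutide, 17.8 ± 7.46 TPM with dapagliflozin and 17.02 ± 4.38 TPM in non-diabetic vehicle tubules. The 8 tested cell cycle genes had a median of −0.01, and Cdkn1c, a cyclin kinase inhibitor that podocytes also express, was 0.48 lower.

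Transcription factors and an integrin stood among the other lower genes. Ets1 was 0.73 lower, from 2.51 ± 1.33 TPM to 1.01 ± 0.362 TPM, and Ets2 0.82 lower. Itgb6, an epithelial integrin subunit that activates latent TGF-beta, ranged from 8.59 to 25.8 TPM with vehicle, with a median of 14.8 TPM, and read 10.6, 9.65, 5.29, 5.66 and 9.69 TPM with semaglutide. Vehicle samples 2 and 5 lay within the semaglutide range of Itgb6, and the difference was −0.84 ± 0.30 (limma adjusted p = 0.823). Glrx5, a mitochondrial protein of iron-sulfur cluster assembly, lay between 2.37 and 6.57 TPM with vehicle and between 1.33 and 2.95 TPM with semaglutide (−0.92 ± 0.34, limma adjusted p = 0.827). Palm3, a membrane-anchored paralemmin, differed by −0.81 ± 0.27 and averaged 9.94 TPM with semaglutide, 9.73 TPM with dapagliflozin and 9.83 TPM in non-diabetic vehicle tubules. Timm50, a subunit of the mitochondrial import machinery, differed by −0.62, and Ints2, a subunit of the Integrator complex, by −0.58. The others of this set were Gpn1 (−0.66), a GTPase that brings RNA polymerase into the nucleus, Abca8a (−0.75), a lipid transporter, Ston1 (−0.69), an endocytic adaptor, and Tssc4 (−0.69), a splicing factor. None of the 12 lower genes was free of overlap between the groups.

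Genes of protein folding in the endoplasmic reticulum had a median above that of all genes, led by Xbp1 (chromosome 11, 5520659 to 5525893), the transcription factor that IRE1 splices when proteins misfold. Vehicle samples of Xbp1 read 18.1, 7.07, 10.5, 6.59, 4.23 and 8.94 TPM, and semaglutide samples read 13.2, 14.7, 12.5, 23.4 and 33.8 TPM. Vehicle sample 1 overlapped the semaglutide group, and the other vehicle samples lay below it. The difference was 1.02 ± 0.27 (limma adjusted p = 0.679). With median-of-ratios scaling Xbp1 had the smallest p of all genes, at 0.85 ± 0.16 and an adjusted p of 0.0614, and with quantile normalization its adjusted p was 0.0582. No alternative gave Xbp1 a lower one. With genes detected as a covariate the smallest limma adjusted p of any gene was 0.317. With the capture number as a covariate, or without vehicle samples 2 and 5, no gene came near a call. Means of Xbp1 were 17.2 ± 3.05 TPM with dapagliflozin and 14.9 ± 4.40 TPM in non-diabetic vehicle tubules, against 9.24 ± 4.85 TPM with vehicle and 19.5 ± 9.12 TPM with semaglutide.

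Of 18 tested genes of endoplasmic reticulum stress, 15 were above 0, against 70.7% of all genes, and the median was 0.39. At an unadjusted p under 0.05, 7 were higher, against 5.20% of all genes. Dnajc3, a luminal co-chaperone, averaged 5.72 ± 1.86 TPM with vehicle and 9.47 ± 2.45 TPM with semaglutide (0.65 ± 0.22, limma adjusted p = 0.801). Canx, the glycoprotein chaperone calnexin and the most abundant member, lay between 89.6 and 150.5 TPM with vehicle and between 134 and 207 TPM with semaglutide, a difference of 0.45. Atf4, the factor of the PERK branch, was 0.32 lower, and Ddit3, its pro-apoptotic target CHOP, differed by −0.04. Without vehicle samples 2 and 5 the list median was 0.16, with 1 member at an unadjusted p under 0.05.

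The ER stress element, which ATF6 and the spliced form of XBP1 bind together with NF-Y, was searched for in the 250 bases before each gene start (RefSeq, GRCm38.p6) as CCAAT followed by 9 bases of any kind and CCACG, on both strands. It was present for 7 of the 16 list members with a window (43.8%) and for 35 of 27025 genes overall (0.13%). The windows of Dnajc3 and Canx are shown because both genes were named by their rank in this list, with the element in capitals, written 5′ to 3′ on the gene's strand.
Dnajc3, chr14:118937682-118937931, plus strand: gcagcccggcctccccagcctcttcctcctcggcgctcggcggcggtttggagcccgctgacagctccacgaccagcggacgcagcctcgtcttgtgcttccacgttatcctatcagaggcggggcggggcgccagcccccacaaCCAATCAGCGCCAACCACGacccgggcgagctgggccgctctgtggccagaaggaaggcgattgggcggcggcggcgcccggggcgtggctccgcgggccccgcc
Canx, chr11:50325674-50325923, minus strand: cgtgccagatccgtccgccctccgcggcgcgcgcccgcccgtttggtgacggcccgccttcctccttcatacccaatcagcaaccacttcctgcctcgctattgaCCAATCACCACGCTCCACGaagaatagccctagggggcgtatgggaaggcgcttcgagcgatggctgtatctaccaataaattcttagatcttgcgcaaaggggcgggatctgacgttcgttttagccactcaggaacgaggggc
The match is a description of these letters and says nothing of binding in these samples.

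In the circadian clock, the output genes Dbp, Per3 and Tef lay above the median of all genes and the core activators Arntl, Npas2 and Clock below it, none past the test. Dbp, a clock-controlled transcription factor with a strong daily rhythm, read 4.64, 25.8, 20.9, 4.68, 4.26 and 24.4 TPM with vehicle and 26.4, 26.9, 31.4, 25.8 and 37.8 TPM with semaglutide. The vehicle samples made up a low set (1, 4 and 5) and a set near the semaglutide values (2, 3 and 6), and vehicle sample 2 was about level with the lowest semaglutide sample. The difference was 1.38 ± 0.40 (95% interval 0.57 to 2.19, limma adjusted p = 0.777). Per3, a period protein, read 1.99, 5.17, 4.68, 1.52, 1.34 and 4.90 TPM with vehicle and 4.66, 6.73, 5.18, 7.94 and 8.13 TPM with semaglutide, with the same vehicle samples low (0.91 ± 0.33, limma adjusted p = 0.823). Arntl, which encodes the activator BMAL1 and peaks at the opposite phase from Dbp, ranged from 0 to 4.21 TPM with vehicle and from 0.180 to 0.634 TPM with semaglutide (−0.44 ± 0.24). Its partner genes Npas2 and Clock differed by −0.76 ± 0.58 and −0.10 ± 0.23. Of 16 tested clock genes 12 were above 0, the median was 0.53, and 6 were higher at an unadjusted p under 0.05, against 70.7% of all genes above 0 and 5.20% higher at that threshold. Without vehicle sample 5 the median was 0.34, and without vehicle samples 2 and 5 it was 0.45, with 3 higher and 1 lower at that threshold. The labels give no time of day for the kidneys, so the hour of collection and treatment cannot be told apart.

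The E-box CACGTG, the site of CLOCK and BMAL1 and its own reverse complement, was present in the 250 bases before the start of 4 of 13 clock genes with a window (30.8%), against 1854 of 27025 genes with a window (6.86%). The 4 genes were Bhlhe41, Ciart, Per1 and Tef, so Dbp and Per3 were not among them. Tef, a sister gene of Dbp and the most abundant member of the list, has a match before both of its listed starts. It averaged 51.9 ± 16.1 TPM with vehicle and 80.0 ± 20.6 TPM with semaglutide (0.63 ± 0.29). Both windows are shown with the E-box in capitals, and these letters say nothing of binding in these samples.
Tef, chr15:81802423-81802672, plus strand: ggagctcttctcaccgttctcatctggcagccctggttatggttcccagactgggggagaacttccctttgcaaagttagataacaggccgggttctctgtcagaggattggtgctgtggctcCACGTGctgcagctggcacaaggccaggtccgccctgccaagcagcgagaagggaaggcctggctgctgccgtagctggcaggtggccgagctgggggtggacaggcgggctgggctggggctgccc
Tef, chr15:81811164-81811413, plus strand: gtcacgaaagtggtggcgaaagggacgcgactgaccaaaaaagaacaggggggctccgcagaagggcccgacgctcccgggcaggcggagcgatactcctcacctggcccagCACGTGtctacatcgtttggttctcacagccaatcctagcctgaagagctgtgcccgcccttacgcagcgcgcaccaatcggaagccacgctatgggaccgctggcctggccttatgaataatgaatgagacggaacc

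Genes of the straight S3 segment and of drug and steroid handling had the highest list medians beside the clock. All 10 tested S3 genes were above 0, with a median of 0.60 (0.42 with median-of-ratios scaling), and 5 were higher at an unadjusted p under 0.05, against 70.7% and 5.20% of all genes. Slc7a13, a cystine transporter of S3 that is higher in males, ranged from 11.2 to 25.4 TPM with vehicle, with a median of 13.2 TPM, and read 23.2, 43.5, 10.7, 41.3 and 37.8 TPM with semaglutide. Semaglutide samples 3, 5 and 6 were high and sample 4 was below every vehicle sample (0.82 ± 0.31, limma adjusted p = 0.836). Those 3 samples also had the high late proximal tubule sums given above, and all 6 markers of that sum are in the S3 list too. Slc27a2, a fatty acid importer and acyl-CoA synthetase, averaged 402 ± 85.96 TPM with vehicle and 627 ± 144 TPM with semaglutide (0.64 ± 0.24). Gpx3, the secreted glutathione peroxidase and the most abundant member, differed by 0.06. Fewer cells of a type and less RNA per cell cannot be told apart in such pooled samples, and the part of the late tubule markers in these values was not tested. Without vehicle samples 2 and 5 the S3 median was 0.34 and 0 members had an unadjusted p under 0.05.

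Of 25 drug and steroid metabolism genes, 23 were above 0, against 70.7% of all genes, and the median was 0.47. At an unadjusted p under 0.05, 9 were higher, against 5.20% of all genes. With median-of-ratios scaling 6 were higher at that threshold, against 3.74% of all genes. Inmt, an indolethylamine methyltransferase, read 33.8, 22.4, 26.7, 24.6, 11.9 and 24.9 TPM with vehicle and 22.1, 49.1, 29.9, 68.1 and 52.1 TPM with semaglutide, with samples 3, 5 and 6 again high (0.81 ± 0.26, limma adjusted p = 0.801). Ces1d, a carboxylesterase that hydrolyses esters and triglyceride, averaged 20.1 ± 7.61 TPM with vehicle and 45.7 ± 27.5 TPM with semaglutide (1.04 ± 0.37). Cyp4b1, the most abundant member, was 0.47 higher. Without vehicle samples 2 and 5 the median was 0.30, with 2 members at an unadjusted p under 0.05. The 16 androgen-induced and male-biased genes, which include Slc7a13, were all above 0, against 70.7% of all genes, with a median of 0.46. That median was 0.22 without semaglutide sample 5 and 0.22 without vehicle samples 2 and 5. Kap, the androgen-regulated kidney protein, averaged 973 ± 291 TPM with vehicle, 1346 ± 463 TPM with semaglutide, 1867 ± 543 TPM with dapagliflozin and 1852 ± 370 TPM in non-diabetic vehicle tubules. Semaglutide samples 3, 5 and 6, again the high ones, read 1633, 1841 and 1543 TPM of Kap, above every vehicle sample. Samples 2 and 4 lay inside the vehicle range. The semaglutide difference for Kap was 0.45 ± 0.25 against vehicle and −0.52 ± 0.26 against the non-diabetic group, with limma adjusted p of 0.865 and 1.00.

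Transporters of organic anions and amino acids had medians above that of all genes, and genes that take up filtered protein were above 0 no more often than all genes. Slc17a1, a urate and phosphate exporter of the brush border, averaged 15.01 ± 5.55 TPM with vehicle and 25.7 ± 10.3 TPM with semaglutide (0.74 ± 0.24), and its neighbour Slc17a3 was 0.49 higher, while the urate exchanger gene Slc22a12 differed by 0.10. These belong to a list of 18 with a median of 0.43. Slc6a6, the taurine transporter, read 33.8, 26.1, 29.7, 34.7, 16.9 and 23.2 TPM with vehicle and 48.9, 41.0, 35.1, 50.9 and 58.1 TPM with semaglutide. Its groups did not overlap (0.77 ± 0.25, limma adjusted p = 0.801). Of the 15 amino acid transporters, which include Slc7a13, 13 were above 0, against 70.7% of all genes, with a median of 0.29. Without vehicle samples 2 and 5 the median of these 15 was 0.14, with 1 member at an unadjusted p under 0.05. Cubn and Lrp2, which encode the endocytic receptors cubilin and megalin, were 0.63 and 0.53 higher, and Dab2, their adaptor, 0.54, within a list of 12 with a median of 0.25. In that list 8 of 12 were above 0, against 70.7% of all genes, and 6 of 12 with median-of-ratios scaling. Its median was 0.10 without vehicle sample 2, and −0.01 without vehicle samples 2 and 5, with 0 members at an unadjusted p under 0.05. Among 14 brush border enzymes with a median of 0.39, Mep1b, a meprin subunit, was 0.85 higher and Ggt1, the abundant glutathione-cleaving enzyme, 0.38 higher.

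**Figure D5:**
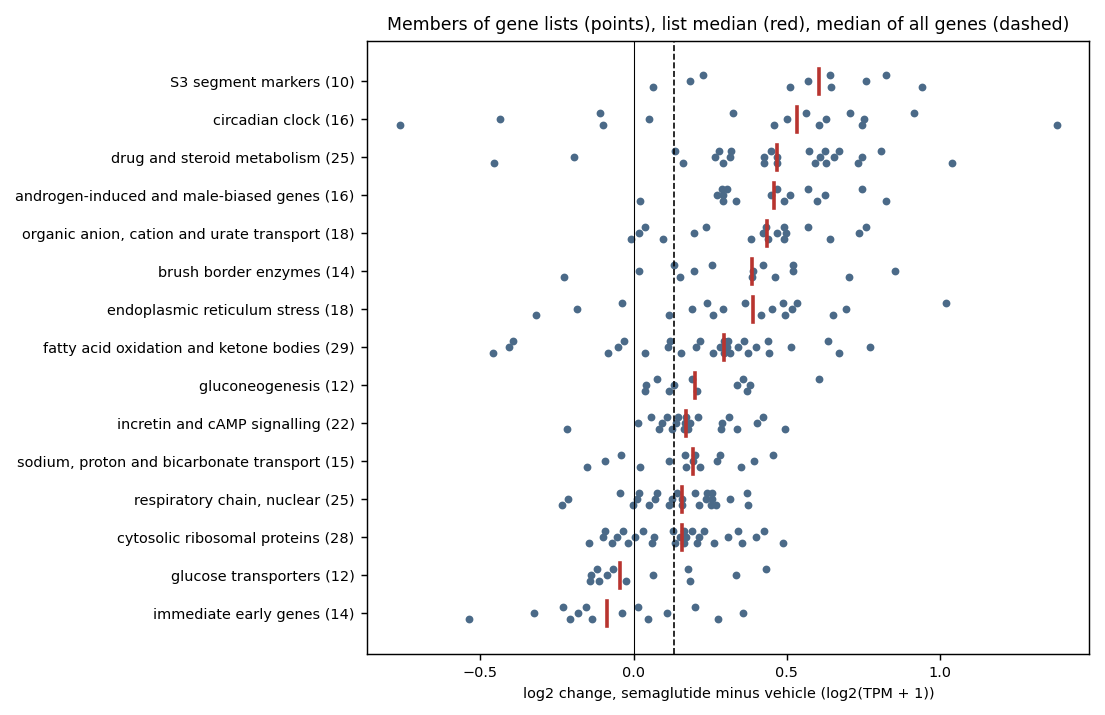
Log2 change with semaglutide against vehicle for the tested members of 15 gene lists, with 1 point per gene, a red bar for the list median and a dashed line at the median of all genes (0.13). The S3 list (0.60) and the clock list (0.53) have the highest medians, and immediate early genes (−0.09) and glucose transporters (−0.05) the lowest.

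Lipid genes were spread to both sides. Scd1, which desaturates newly made fatty acids, lay between 0 and 0.610 TPM with vehicle and between 0.670 and 3.49 TPM with semaglutide, without overlap and low in both groups (0.95 ± 0.34, limma adjusted p = 0.823). Cd36, a fatty acid uptake receptor, read 42.2, 15.1, 27.8, 18.5, 12.1 and 24.4 TPM with vehicle and 23.4, 83.8, 27.5, 43.96 and 37.4 TPM with semaglutide. Semaglutide samples 3 and 5 exceeded every vehicle sample, and vehicle sample 1 exceeded the other 3 (0.83 ± 0.30). Acacb, the carboxylase whose malonyl-CoA restrains fatty acid oxidation, was 0.50 lower. Over 27 genes of lipid synthesis and uptake the median was 0.24, with 4 higher and 1 lower at an unadjusted p under 0.05, against 5.20% and 0.620% of all genes. The balance of that list was 3 higher and 3 lower with median-of-ratios scaling, against 3.74% and 3.55% of all genes. Without vehicle samples 2 and 5 it was 1 higher and 5 lower, against 169 and 242 of 12742 genes, and the list median was 0.04. Without semaglutide sample 6 the median was 0.14. Of 29 genes of fatty acid oxidation 23 were above 0 (19 with median-of-ratios scaling), against 70.7% of all genes, with a median of 0.29. Without vehicle samples 2 and 5 the median of these 29 genes was 0.03, with 0 members at an unadjusted p under 0.05. Ehhadh, a peroxisomal enzyme and PPAR-alpha target, averaged 12.2 ± 5.10 TPM with vehicle and 19.1 ± 4.89 TPM with semaglutide (0.67 ± 0.25), and Cpt1a, the mitochondrial gatekeeper, was 0.64 higher.

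Injury, inflammation and stimulus genes had medians at or below that of all genes. Havcr1, which encodes the injury marker KIM-1, stayed between 0 and 0.788 TPM in the 11 samples, and Lcn2 between 0 and 0.618 TPM, both too low to test. Spp1, osteopontin, averaged 17.8 ± 7.87 TPM with vehicle and 15.7 ± 9.03 TPM with semaglutide (−0.20 ± 0.42, 95% interval −1.04 to 0.64). Krt8 and Krt18, epithelial keratins that rise in injured tubules, were 0.31 and 0.39 higher. The 11 injury genes tested had a median of 0.07, 13 cytokine and NF-kB genes −0.01 and 15 matrix genes −0.05. Cfb, a complement factor, was 0.52 higher, with an unadjusted p under 0.05. Fos read 1.04, 1.53, 1.32, 1.47, 0.114 and 1.41 TPM with vehicle and 0.0706, 0.323, 0.169, 1.82 and 3.37 TPM with semaglutide. Semaglutide samples 5 and 6 exceeded every vehicle sample, sample 2 lay below every one, and samples 3 and 4 lay below 5 of the 6 (−0.18 ± 0.33). Sgk1, a kinase induced by steroids, averaged 5.63 ± 4.65 TPM with vehicle, where sample 4 reached 14.9 TPM, and 1.91 ± 0.662 TPM with semaglutide (95% interval of the log2 difference −2.04 to 0.03). The thioredoxin-binding glucose sensor gene Txnip differed by 0.24 ± 0.34.

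Direct comparisons placed the semaglutide tubules beside the other wild-type groups. Against dapagliflozin limma called 0 of 12742 genes (0%), with a smallest adjusted p of 0.603 and 332 genes (2.61%) at an unadjusted p under 0.05, 84 higher (0.659%) and 248 lower (1.95%). Against non-diabetic vehicle it also called 0 (0%), with a smallest adjusted p of 0.278 for Txndc16 and 338 genes (2.65%) at an unadjusted p under 0.05, 126 higher (0.989%) and 212 lower (1.66%). With median-of-ratios scaling Txndc16 was called as higher than in the non-diabetic group, at 1.01 ± 0.16 with a limma adjusted p of 0.00272. On the deposited scale Txndc16 was not called, nor was it with a pseudocount of 0.1. A fit of the semaglutide and non-diabetic groups alone gave 1.02 ± 0.25 with a limma adjusted p of 0.911, again not called. With the capture number as a covariate the deposited scale gave 1.03 ± 0.22 with a limma adjusted p of 0.354. That covariate was not run together with median-of-ratios scaling. All 3 comparisons use the same 5 semaglutide samples, so their values are not independent of each other.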

How the data were processed

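RNA libraries came from laser-captured tubules, made per the labels' protocols with a stranded kit for total RNA, 0.5 ng input and a DV200 (share of long fragments) above 30%. The authors deposited TPM, with outlier samples already removed according to the table's name, and of 54 labelled samples 48 have a column. Salmon, MultiQC 1.8 and the build GRCm38 are named per the submitters' processing notes, and neither their parameters nor the rule for outliers, the Salmon version or the annotation release is given in the sources used here. TPM keeps no depth, so no counting interval is given. Columns were matched by the capture number in the title, and 0 were left unmatched. Symbols matched GENCODE M21 for 51911 of 55487 rows.

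limma 3.58.1 (R 4.3.3, statmod 1.5.0) was fitted to log2(TPM + 1) of 12742 genes with 9 group means over 48 columns (39 residual degrees of freedom), trended and robust, with Benjamini-Hochberg adjustment over all genes and calls at 0.05. Intervals are 95% and not adjusted. Library measures were compared with exact two-sided permutation tests over 462 splits.

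Named genes were any called, the 12 of smallest p each way with a mean of 2 TPM or more (predicted genes and pseudogenes left out), the 2 of smallest p and the most abundant of each of 39 lists, and genes chosen for their role, and some genes under this rule are not reported here. Arntl, Npas2, Clock, Atf4, Ddit3, Acacb and Snora31 were named after their values were seen. The members and lists were chosen with earlier results of these data known. Alternatives covered the pseudocount, filter, scaling, samples in the fit, moderation, weights, covariates and left-out libraries, and those on unadjusted counts, on overlap and on list signs were added after the data were seen.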

Additional observations from a re-analysis of the deposited data

Results flagged for a closer look

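The 96 sets of values examined were named genes, the number of genes detected and RNA shares of the library, each in both groups. Of these sets, 5 held a sample farther from its neighbours than a test for a single outlying value allows. That is about the number that chance gives at the 5% level of the test. Engase lay at 1.33 TPM in vehicle sample 6, with the other vehicle samples between 0.337 and 0.645 TPM, and at 4.37 TPM in semaglutide sample 6, with the others between 1.82 and 2.52 TPM. Abca8a lay at 0.322 TPM in vehicle sample 5, against 1.93 to 2.71 TPM in the other vehicle samples. Fos lay at 0.114 TPM in the same library, against 1.04 to 1.53 TPM. Vehicle sample 5 is the library with the fewest genes detected, 8624. Tssc4 lay at 7.42 TPM in vehicle sample 1, against 0.815 to 3.25 TPM in the others.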

How the results depend on the processing

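The count of called genes between semaglutide and vehicle was 0 under each of the 23 alternatives run, with the smallest adjusted p between 0.0521 (array weights, Rsl24d1) and 1.00. Against dapagliflozin it was 0 under each of the 5 run. Against non-diabetic vehicle it was 1 with median-of-ratios scaling and 1 after rescaling to the nuclear protein-coding total (Txndc16 in both, adjusted p 0.00272 and 0.00401), and 1 in a fit of those groups alone (Snora31, listed at 0 in the 5 semaglutide samples and at 5.12 to 17.1 TPM in the non-diabetic ones). The cause was not tested. The 742 genes at an unadjusted p under 0.05 became 1705 with no filter, 423 with a filter at 5 TPM, 412 with the capture number as a covariate and 411 without vehicle samples 2 and 5. Leaving out 1 library gave 411 to 1164, moved by over 1.5 times without vehicle sample 1 (1164), semaglutide sample 5 (478) and semaglutide sample 6 (411). Genes without overlap went from 51 to 89 with median-of-ratios scaling and 95 with nuclear rescaling. The 24 genes of smallest p kept their sign under every alternative that tested them. That says little, because they were chosen for their difference in these same samples. Of 43 named genes followed, 6 changed sign. Slc4a4 was 0.00 with quantile normalization, −0.01 with array weights, −0.12 with the capture number, −0.03 with genes detected as a covariate and −0.04 without vehicle samples 2 and 5. Txnip was −0.02 and −0.07 under the last pair, and Egr1 0.02 with a pseudocount of 0.1 and 0.04 with the capture number. Leaving out 1 library gave −0.10 to 0.06 for Slc34a1, −0.22 to 0.21 for Egr1, 0.00 to 0.46 for Txnip, −0.50 to 0.01 for Fos and −0.23 to 0.00 for Slc2a2. Of 39 list medians, 20 changed sign or reached 0 under some alternative and 19 did not, among them the S3 (0.34 to 0.73) and clock lists (0.30 to 0.67). No paired analysis was possible because replicate numbers were given in accession order and pair no samples.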

Other observations

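Housekeeping and mitochondrial lists stayed near the median of all genes. The 28 ribosomal protein genes had a median of 0.16, the 22 proteasome genes 0.20, the 25 nuclear genes of the respiratory chain 0.16, its 13 mitochondrial genes 0.13 and the 20 genes of the tricarboxylic acid cycle 0.19, against 0.13 over all genes. Psmd14, a deubiquitinase of the proteasome lid, was 0.69 higher with semaglutide, and Pdha1, a subunit of pyruvate dehydrogenase, 0.47 higher, both with an unadjusted p under 0.05. Glycolysis genes had a median of 0.14 over 16 genes, with Slc16a1, the lactate carrier, 0.39 lower, and the 8 fructose and polyol genes 0.02, with Akr1b3, aldose reductase, 0.49 higher.

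Amino acid breakdown had all 30 tested genes above 0, with a median of 0.24. All 20 peroxisome genes were above 0, with a median of 0.29, against 70.7% of all genes above 0. Both counts followed the scale, since 19 of 30 and 12 of 20 were above 0 with median-of-ratios scaling. Aass, the lysine-degrading enzyme, was 0.61 higher, Cdo1, cysteine dioxygenase, 0.62 higher and Crot, the peroxisomal carnitine transferase, 0.60 higher, each at an unadjusted p under 0.05. The 9 ammonia genes had a median of 0.27. In the antioxidant list Gstm1 was 0.82 higher and Sod1 0.57 higher, although the median of its 20 genes was 0.08. Cholesterol synthesis had a median of 0.21 over 20 genes, with Lss, lanosterol synthase, 0.78 higher. Hypoxia genes had a median of 0.14 with Bnip3, a mitophagy receptor, 0.59 higher, and heat shock genes 0.16 with Hspd1, the mitochondrial chaperonin, 0.36 higher. Lysosome genes had a median of 0.15, growth signalling genes 0.21, interferon genes 0.03, S1 and S2 identity genes 0.25 and immediate early genes −0.09.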
